A study of Mus musculus with 3 samples.

Results

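The regions described here are CEBPG binding peaks of moderate score that lie between genes and carry no ATF4 peak. They were taken from a chromatin immunoprecipitation sequencing (ChIP-seq) experiment on wild-type C57BL/6 mouse embryonic fibroblasts, primary cells isolated at E13.5. All cells of the series were plated for 24 hours and then kept in amino acid deprived medium for 3 hours before fixation, so there was no fed group. The CEBPG library (an antiserum against the C terminus of CEBPG, made by the submitters) and the ATF4 library (a commercial antibody) were used, with 1 library per antibody, and the library made with a GFP antibody was not analysed here. Of 25419 CEBPG peaks, 1159 (4.56%) were chosen by 3 conditions: a score from 100 to under 500, no base shared with any of the 2642 ATF4 peaks and no ATF4 peak centre within 250 bp, and a centre outside the span of every RefSeq protein-coding gene. The score is the authors' own value for each peak, on a scale that begins at 40 in both lists. The regions were thus selected on their scores, the ATF4 peaks and the gene spans, which are given as a description only. Before the ATF4 condition 1209 peaks remained, and 50 of them (4.14%) were left out because they shared a base with an ATF4 peak. The absence of an ATF4 peak means that no peak of score 40 or more was listed there, not that ATF4 was absent.

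CEBPG is a basic leucine zipper (bZIP) protein of the C/EBP family. It lacks a strong activation domain of its own and binds DNA as a homodimer or as a heterodimer with other bZIP proteins, ATF4 among them. C/EBP homodimers are known to prefer a palindrome built from TTGC, whereas C/EBP-ATF heterodimers prefer a composite that joins an ATF-type part to a C/EBP-type part, the element found at many amino acid response genes. Binding sites of C/EBP proteins are spread over promoters and over distal elements far from genes.

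Sequence could be read for the regions that reach a gene start with a promoter window. RefSeq promoter windows (GRCm38.p6, the build mm10) run from 250 bases before to 50 bases after a start, 300 bases in all. Of the 1159 regions, 60 (5.18%) overlapped such a window and 44 (3.80%) were centred in one. These counts miss regions at starts whose window was not used here: of the 56 regions within 250 bp of a protein-coding gene boundary, the nearest gene of 14 had no window. The 9 windows printed here show what lies under these peaks. Pycr1, Gars and Fgf21 are genes of the amino acid response, Ptgs2 and Il1rl2 are genes of inflammation, and Rpia, Kifc1, Ss18l2 and Rbm39 are other genes with high-scoring promoter regions. Each is given 5′ to 3′ on the strand of its gene, with capitals marking matches on either strand to the C/EBP motif TTGCNNAA, the C/EBP-ATF composite TGATGNAA and the C/EBP-CRE hybrid TGACGCAA. These 3 spellings cannot match the same run of bases, though matches can overlap in part.
Pycr1 (chr11:120643699-120643998, - strand): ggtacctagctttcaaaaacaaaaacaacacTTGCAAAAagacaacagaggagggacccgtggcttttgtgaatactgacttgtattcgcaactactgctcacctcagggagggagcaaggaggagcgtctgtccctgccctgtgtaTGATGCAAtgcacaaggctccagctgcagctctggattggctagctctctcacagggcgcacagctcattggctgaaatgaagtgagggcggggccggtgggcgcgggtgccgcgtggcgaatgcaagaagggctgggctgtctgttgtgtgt
Gars (chr6:55037751-55038050, + strand): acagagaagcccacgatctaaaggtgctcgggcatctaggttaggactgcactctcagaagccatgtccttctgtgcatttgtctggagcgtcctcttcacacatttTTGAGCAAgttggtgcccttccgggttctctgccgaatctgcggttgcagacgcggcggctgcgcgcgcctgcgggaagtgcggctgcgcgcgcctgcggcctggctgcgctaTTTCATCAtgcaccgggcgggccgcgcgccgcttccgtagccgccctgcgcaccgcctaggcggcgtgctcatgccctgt
Fgf21 (chr7:45615441-45615740, - strand): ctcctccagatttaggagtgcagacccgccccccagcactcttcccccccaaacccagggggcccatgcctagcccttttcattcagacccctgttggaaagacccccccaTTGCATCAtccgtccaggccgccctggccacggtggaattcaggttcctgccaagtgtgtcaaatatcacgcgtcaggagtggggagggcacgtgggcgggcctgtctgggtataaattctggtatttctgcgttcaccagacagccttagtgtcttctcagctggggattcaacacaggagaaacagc
Ptgs2 (chr1:150099781-150100080, + strand): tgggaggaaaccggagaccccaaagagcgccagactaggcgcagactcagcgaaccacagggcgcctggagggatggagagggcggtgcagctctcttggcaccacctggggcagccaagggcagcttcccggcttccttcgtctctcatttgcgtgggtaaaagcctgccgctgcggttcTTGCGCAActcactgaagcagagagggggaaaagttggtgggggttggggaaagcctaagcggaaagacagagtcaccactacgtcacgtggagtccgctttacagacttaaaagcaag
Rpia (chr6:70792126-70792425, - strand): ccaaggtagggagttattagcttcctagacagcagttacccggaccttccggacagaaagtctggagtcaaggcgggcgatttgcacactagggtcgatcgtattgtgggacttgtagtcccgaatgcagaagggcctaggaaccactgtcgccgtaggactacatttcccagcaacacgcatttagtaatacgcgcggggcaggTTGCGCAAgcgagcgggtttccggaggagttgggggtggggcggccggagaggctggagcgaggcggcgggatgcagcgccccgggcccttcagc
Il1rl2 (chr1:40324339-40324638, + strand): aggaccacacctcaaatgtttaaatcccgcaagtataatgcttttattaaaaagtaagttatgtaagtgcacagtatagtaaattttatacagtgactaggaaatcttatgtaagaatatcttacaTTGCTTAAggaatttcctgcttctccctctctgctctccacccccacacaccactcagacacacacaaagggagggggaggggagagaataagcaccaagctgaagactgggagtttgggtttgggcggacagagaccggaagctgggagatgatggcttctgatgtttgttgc
Kifc1 (chr17:33890584-33890883, - strand): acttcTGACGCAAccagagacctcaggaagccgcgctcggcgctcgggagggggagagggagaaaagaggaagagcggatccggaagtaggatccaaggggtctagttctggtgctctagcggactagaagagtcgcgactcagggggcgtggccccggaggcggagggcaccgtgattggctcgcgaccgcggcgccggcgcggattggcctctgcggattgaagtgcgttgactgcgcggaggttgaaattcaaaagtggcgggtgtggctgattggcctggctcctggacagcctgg
Ss18l2 (chr9:121710139-121710438, + strand): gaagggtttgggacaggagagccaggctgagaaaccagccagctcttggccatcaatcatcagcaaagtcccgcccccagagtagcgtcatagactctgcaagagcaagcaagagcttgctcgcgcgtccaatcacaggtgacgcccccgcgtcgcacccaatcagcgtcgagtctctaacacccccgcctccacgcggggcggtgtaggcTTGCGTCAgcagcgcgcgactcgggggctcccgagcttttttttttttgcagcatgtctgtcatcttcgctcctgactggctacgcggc
Rbm39 (chr2:156180189-156180488, - strand): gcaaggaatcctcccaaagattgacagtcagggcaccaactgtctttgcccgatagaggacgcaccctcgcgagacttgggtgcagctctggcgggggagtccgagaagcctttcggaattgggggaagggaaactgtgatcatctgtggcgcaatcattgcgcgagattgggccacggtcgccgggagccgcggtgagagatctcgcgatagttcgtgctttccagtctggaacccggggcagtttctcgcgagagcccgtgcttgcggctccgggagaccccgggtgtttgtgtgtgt

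The region at Pycr1, which encodes an enzyme of proline synthesis, had a score of 485.00, covered all 300 bases of the window and was centred 51 bp upstream of the start. Its window held the composite TGATGCAA, 48.5 bp from the peak centre, and a TTGCAAAA match 164.5 bp from it. At Fgf21, a secreted hormone induced by amino acid shortage, the score was 112.07 and the composite was found in reverse (TTGCATCA), 46.5 bp from the centre. The window of Gars, glycyl-tRNA synthetase (score 272.35), held TTTCATCA, a composite match in reverse, 41.5 bp from the centre, and TTGAGCAA, 71.5 bp from it. Perfect palindromes, TTGCGCAA, stood at Ptgs2, the inducible cyclooxygenase (score 359.99, 16.5 bp from the centre), and at Rpia, ribose 5-phosphate isomerase (score 442.47, 90.5 bp from the centre). Il1rl2, an interleukin-36 receptor subunit (score 449.16), held TTGCTTAA, 12.5 bp from the centre. The hybrid TGACGCAA stood at Kifc1, a kinesin (score 427.08), and in reverse at Ss18l2 (score 324.09). The highest-scoring of all promoter regions, at the splicing factor gene Rbm39 (score 492.17, centred 76 bp upstream), held none of these 3 motifs. These windows thus carry different forms of the site rather than a common form, and a match is a run of letters, not a measured site.

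The 44 windows with a centre of these regions held C/EBP-type letters more often than promoter windows at large. TTGCNNAA was found in 16 of 44 windows (36.4%, 95% Wilson interval 23.8 to 51.1%), against 10.8% of all 32851 windows. Since the rule looks at the peak centre only, 51 regions had some base in a protein-coding gene. With those left out, 12 windows remained, and 4 of them held TTGCNNAA (33.3%, 13.8 to 60.9%). Most of the 44 windows thus held the centre of a region that reached into a gene. The other motifs are not given for these 12 windows. The palindrome TTGCGCAA, which is contained in TTGCNNAA, was in 5 of 44 (11.4%, 4.95 to 24.0%) against 0.183%. The composite TGATGNAA was in 14 (31.8%, 20 to 46.6%) against 3.97%, and the hybrid TGACGCAA in 11 (25%, 14.6 to 39.4%) against 0.49%. At least 1 of TTGCNNAA, TGATGNAA and TGACGCAA was present in 35 of 44 windows (79.5%, 65.5 to 88.8%) against 14.6% of all windows, and 6 of the 44 held more than 1 of these motifs. The composite form usual for C/EBP-ATF dimers was thus present in windows where no ATF4 peak was listed.

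Other motifs stood closer to their background. The full CRE palindrome TGACGTCA was in 0 of 44 windows, which allows a share of up to 8.03% (Wilson), against 1.79%. The AP-1 motif TGANTCA was in 7 (15.9%, 7.93 to 29.4%) against 7.81%, the CCAAT box in 21 (47.7%, 33.8 to 62.1%) against 37.4%, and the E-box CACGTG in 6 (13.6%, 6.40 to 26.7%) against 7.15%. The short run TTGCAA was in 3 (6.82%) against 6.23%. The loosest spelling, TTNCNNAA, which contains TTGCNNAA, was in 28 (63.6%, 48.9 to 76.2%) against 40.7%. Base composition differed little, with a median GC content of 55.3% in the 44 windows and 52.7% in all windows.

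The matches lay near the peak centres. In the 35 windows with one of the 3 motifs, the nearest match was a median of 23.5 bp from the centre and within 50 bp in 27 of 35. The CCAAT box was also close, at a median of 34 bp over 21 windows, so nearness to the centre was not limited to C/EBP-type letters. Nearness was also shared by other CEBPG-only peaks. The median distance was 32.5 bp for peaks of the same scores inside genes (within 50 bp in 21 of 26 windows). For weak peaks between genes it was 29.5 bp (26 of 37). The share of windows with one of the 3 motifs was 26 of 34 (76.5%, 60.0 to 87.6%) for the peaks inside genes. For weak CEBPG-only peaks between genes, with scores under 100, it was 37 of 81 (45.7%, 35.3 to 56.5%). That interval does not reach that of the moderate regions, but the union of 3 motifs was chosen after the values were seen. Taken singly in the weak windows, TTGCNNAA was at 24.7% (16.6 to 35.1%), TGATGNAA at 16.0% (9.63 to 25.5%) and TGACGCAA at 7.41% (3.44 to 15.2%). Each of these 3 intervals overlaps that of the moderate regions. CEBPG peaks with ATF4 between genes held the composite in 8 of 15 windows (53.3%, 30.1 to 75.2%) and the palindrome in 0 of 15 (up to 20.4%). The intervals of the composite overlap between these and the moderate regions. No test was made of any difference between sets of peaks in this report, since the peaks of 1 library are not replicates, and the intervals cover counting error only.

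**Figure D1:**
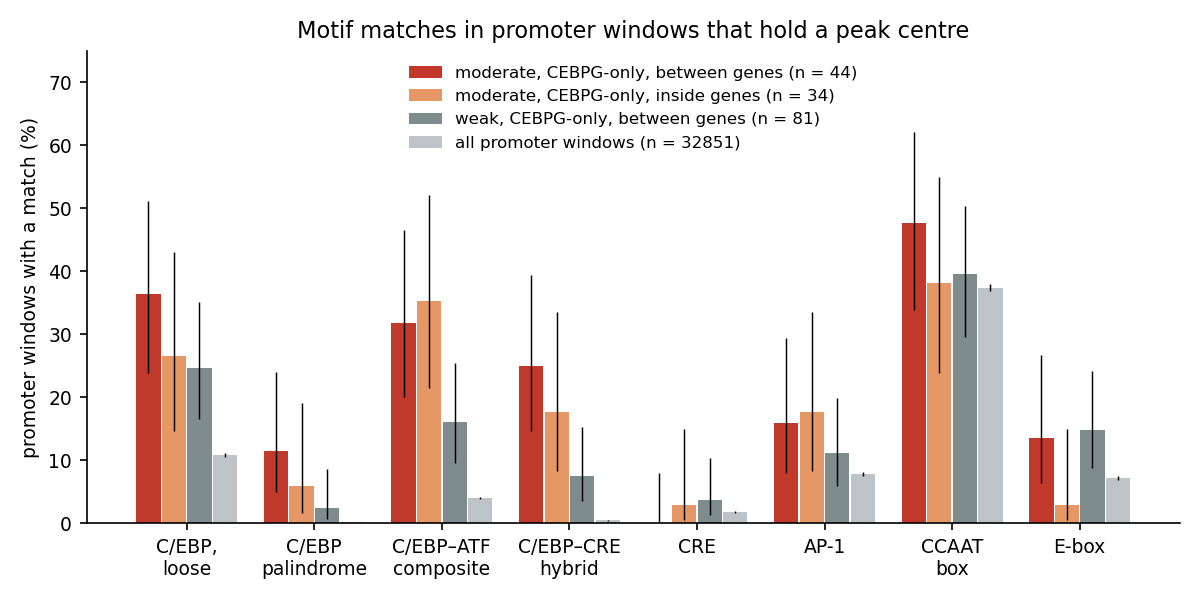
Share of promoter windows (%, with 95% Wilson intervals) that hold each motif, for windows with the centre of a moderate CEBPG-only peak between genes (n = 44) or inside genes (n = 34), of a weak CEBPG-only peak between genes (n = 81), and for all 32851 windows. The loose C/EBP motif is TTGCNNAA, and the 4 C/EBP-type motifs at the left stand above all windows for the moderate regions, while the CCAAT box is at 47.7% against 37.4%.

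Scores were concentrated near the lower limit. The median was 176.08, the quartiles 125.76 and 266.96, and 669 of the regions (57.7%) scored under 200, whereas 233 (20.1%) reached 300. The 5 regions just inside the lower limit scored from 100.04 to 100.32, and the 5 peaks just outside it, otherwise alike, from 99.51 to 99.95. At the upper limit the 5 inside scored from 494.57 to 499.96 and the 5 outside from 503.09 to 508.13, so neither limit fell in a gap between scores. The median width was 357 bp, against 353 bp for moderate CEBPG-only peaks inside genes and 128 bp for weak ones between genes. Width rose with score across the regions (Spearman's rho 0.70 over 1159 regions, which share 1 library and 1 peak caller), from a median of 284 bp at scores from 100 to 150 to 480 bp at scores from 400 to 500. Only 2 regions were wider than 1000 bp. The wider, 4660 bp long, lay on chromosome 1 (24611529 to 24616188) with a score of 188.91, and the other, 1228 bp long, lay 69 bp from Hjurp, a centromere histone chaperone gene.

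**Figure D2:**
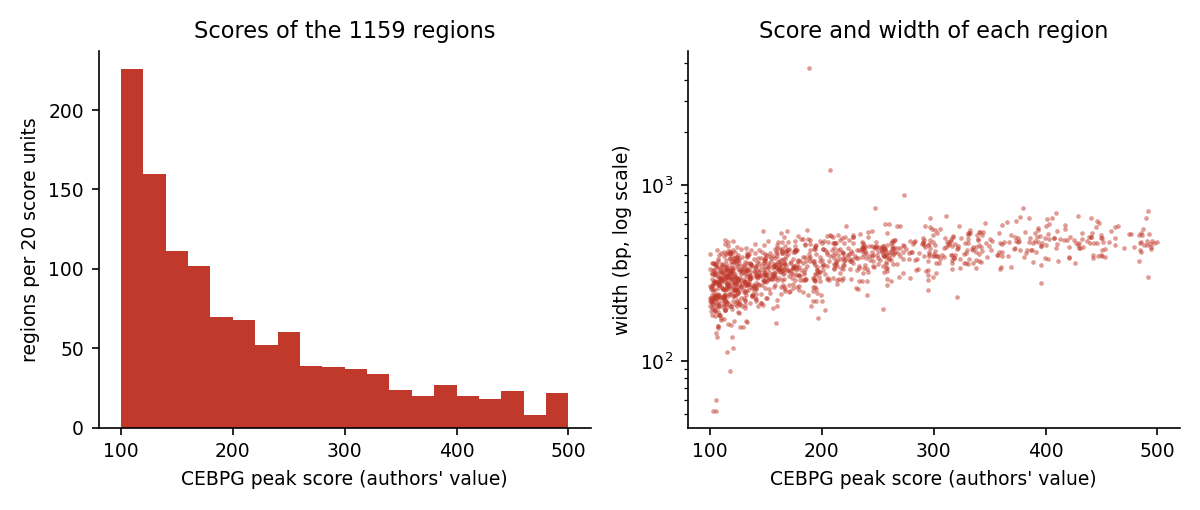
Left, number of regions per 20 units of the authors' score, with scores running from 100.04 to 499.96. Right, score against width (bp, log scale) for each of the 1159 regions, with the 4660 bp region standing alone at the top.

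Distances to protein-coding genes were mostly long, but the density of the regions was highest right beside such genes. The median distance from a centre to the nearest end of a protein-coding gene was 40.2 kb (quartiles 10.3 and 151 kb). Of the 1159 regions, 90 (7.77%, 6.36 to 9.45%) were within 1 kb, 200 (17.3%, 15.2 to 19.5%) within 5 kb, 375 (32.4%, 29.7 to 35.1%) over 100 kb away and 89 (7.68%) over 500 kb away. The space between protein-coding genes came to 1660 Mb in 19697 gaps. Per Mb of that space, there were 2.53 regions in the first kb from a gene end, 0.963 from 1 to 5 kb, 0.851 from 5 to 20 kb, 0.783 from 20 to 100 kb, 0.519 from 100 to 500 kb and 0.38 beyond. The first kb was thus 3.62 times as dense as the mean of these regions, and the space beyond 500 kb 0.544 times. Weak CEBPG-only peaks between genes were more evenly spread, with 1.43 times their own mean in the first kb and 1.19 times beyond 500 kb, and their median distance was 108 kb. Strong CEBPG-only peaks (score of 500 or more, n = 211) had 3.75 times their mean in the first kb and a median distance of 40.7 kb. CEBPG peaks with ATF4 between genes (n = 242, of any score) had 5.00 times their mean there, with 10.7% (7.44 to 15.3%) of peaks within 1 kb. Within the moderate regions, score and distance were nearly unrelated (rho -0.06). Unmappable sequence could not be taken out of the space between genes.

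**Figure D3:**
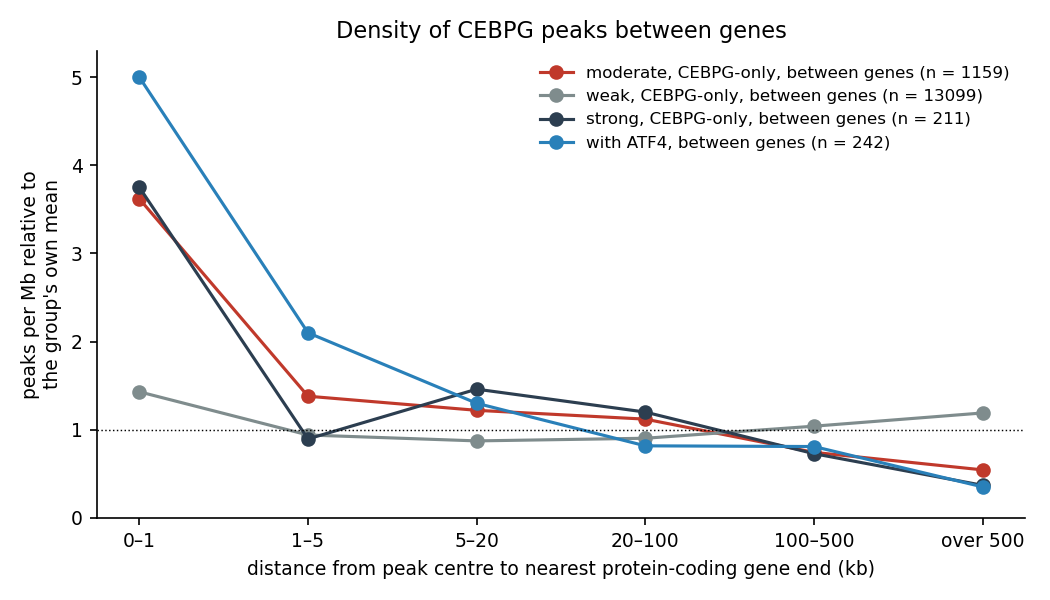
Peaks per Mb of space between protein-coding genes, divided by the mean density of the same set, in 6 classes of distance (kb) from the peak centre to the nearest gene end. The moderate regions fall from 3.62 in the first kb to 0.544 beyond 500 kb, while the weak peaks go from 1.43 to 1.19.

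The density beside genes lay mostly on the start side. Strand was known for 17492 of the 21887 protein-coding genes, those with a promoter window. Within 1 kb of a gene boundary of known strand, 62 regions faced a gene start and 8 a gene end, over 14.3 Mb of space on each side, which gives 4.35 and 0.56 regions per Mb. In the first 250 bp there were 39 at starts and 3 at ends. From 1 to 5 kb the sides were closer, with 51 regions (1.07 per Mb) and 37 (0.85 per Mb), and from 5 to 20 kb they were 0.843 and 0.90 per Mb. For weak CEBPG-only peaks between genes the first kb held 206 at starts and 112 at ends (14.5 and 7.85 per Mb). CEBPG peaks with ATF4 between genes, of any score, were at 22 starts and 0 ends in the first kb. Measured to the nearest annotated start of any gene with a window, non-coding genes included and starts without a window missed, 47 regions were within 250 bp, 43 of them upstream. The excess upstream over downstream is partly set by the rule, since bases downstream of a start lie in a gene, but the comparison of start and end sides is not.

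**Figure D4:**
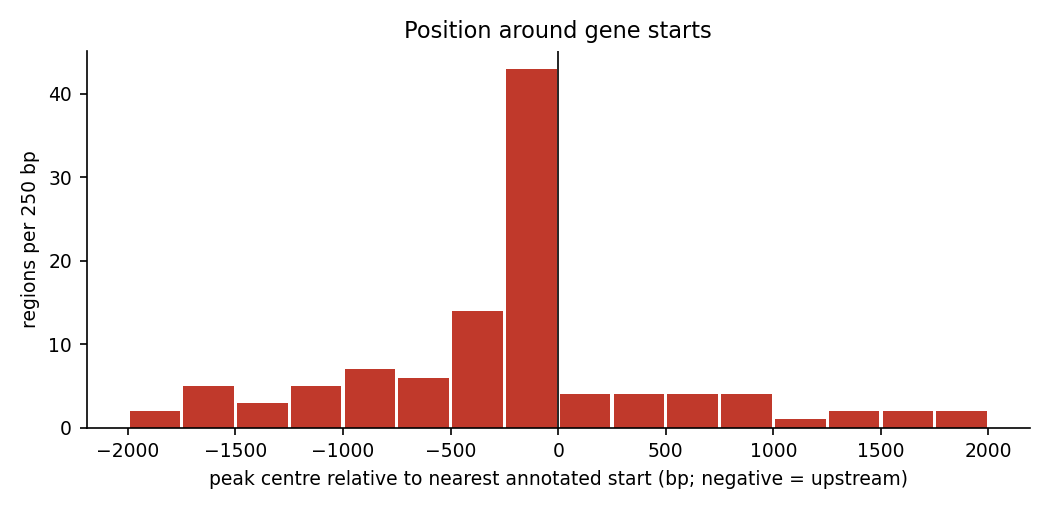
Number of regions per 250 bp by position of the peak centre relative to the nearest annotated gene start (bp, negative upstream), with starts of coding and non-coding genes. The class from 250 bp upstream to the start holds 43 regions and no other class holds more than 14.

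The 10 highest-scoring regions ranged from a promoter to 188 kb from the nearest protein-coding gene. The first (499.96, chromosome 10, 111160108 to 111160580) lay 4.40 kb from Osbpl8, a lipid transfer protein gene, and the second (496.72, chromosome 16, 91352780 to 91353246) 19.8 kb from Ifnar2, an interferon receptor subunit gene, between Olig1 and Ifnar2. The next lay 6.37 kb from Rtl3 (495.34), 12.6 kb from Irf2bpl (494.62) and 188 kb from Tmc3 (494.57). A region 14.99 kb from Tfap2d, a transcription factor gene, scored 493.46 and lay inside the long non-coding RNA gene Gm15825. The Rbm39 promoter followed, and then regions 6.32 kb from Sec14l1 (492.01), 61.1 kb from Sipa1l1 (491.88) and 28.7 kb from Lclat1 (490.73). For 9 of the 10 the nearer boundary of the gap was a gene start, Lclat1 being the exception. Among all the regions at a boundary of known strand, 88.6% faced a start within 1 kb, 58.0% from 1 to 5 kb and 52.6% from 5 to 20 kb. No such share is given beyond 20 kb. Whether the highest scores differ from the other regions in this was not tested. The nearest ATF4 peaks to these 10 were between 29.1 and 893 kb away, with ATF4 scores from 40.06 to 85.38.

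Among promoter regions, the 12 with the highest scores, from 492.17 down to 320.47, lay at Rbm39, Gm13073, Pycr1, Il1rl2, Rpia, Kifc1, Fbxo11, Tnfaip6, Ptgs2 (a window shared with its antisense gene Ptgs2os), Ss18l2, Plekhh3 and Gm40673. Tnfaip6, which encodes a hyaluronan-binding protein of inflamed tissue, had a score of 412.90 with the region centred 108 bp upstream of its start. Its window held the AP-1 sequence TGAGTCA, 31.0 bp from the centre, and none of the 3 C/EBP-type motifs. Nearer to the centre were a match to the loosest spelling TTNCNNAA, at 3.5 bp, and a CCAAT box, at 29.0 bp. Both of these spellings are common, in 40.7% and 37.4% of all windows. Plekhh3 (323.48) held both the composite TGATGCAA and the hybrid TGACGCAA. At Gm13073, Fbxo11 and Gm40673 the region overlapped the window but was centred outside it, at 267 bp downstream, 417 bp upstream and 174 bp downstream of the start.

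The regions farthest from protein-coding genes lay in long gaps between them. The farthest was 1678 kb from Pcdh10, a protocadherin gene (score 163.17, chromosome 3, 43700737 to 43700975), in a gap of 3575 kb. The gap between Slc10a2 and Efnb2 on chromosome 8, 3512 kb long, held 3 of the 8 farthest, with scores of 104.07, 187.64 and 114.35. The others lay 1285 kb from Gm15501 (121.60, inside the 1284 kb long non-coding RNA gene Gm32647), 1263 kb from Nova1 (102.39), 1182 kb from Zpld1 (310.30) and 1170 kb from Cited2 (380.17, 745 bp wide). These 8 were not confined to low scores, and 2 of them exceeded 300.

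The regions were spread thinly, with a few local groups. They fell in 917 of the 19697 gaps, 756 of which held 1 region, and only 10 gaps held 5 or more (59 regions). Gaps with a region had a median length of 162 kb against 17.3 kb for all gaps. The densest 100 kb lay between Smim20 and Rbpj on chromosome 5, where 5 regions stood within 46.6 kb (scores from 107.59 to 445.51), from 18.3 to 64.9 kb from Rbpj, the DNA-binding effector of Notch signalling. That stretch held 9 CEBPG peaks in all, 1 of them overlapping an ATF4 peak. The next lay between Fn1 (fibronectin) and Mreg on chromosome 1, with 4 regions within 53.9 kb (134.56 to 217.00) among 7 CEBPG peaks, none of which overlapped an ATF4 peak. A further 10 stretches held 3 regions each, including 2 in the 2952 kb gap between Nmbr and Cited2, a transcriptional co-regulator gene.

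By chromosome, the number of regions ran from 19 on X to 109 on chromosome 1, with 0 on Y. Per Mb of space between genes, the autosomes ranged from 0.511 (chromosome 12) to 1.02 (chromosome 11), and X had 0.152. As a share of all CEBPG peaks of the chromosome, X stood at 5.52% and the autosomes between 3.15% (chromosome 6) and 5.39% (chromosome 11), so X was low in CEBPG peaks as a whole (344) and not in these regions alone.

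Some regions had another CEBPG peak close by, mostly a weak one. Another CEBPG peak was centred within 1 kb of 174 regions (15%, 13.1 to 17.2%) and within 10 kb of 443 (38.2%, 35.5 to 41.1%). Inside genes, 13.2% of moderate CEBPG-only peaks had one within 1 kb, and between genes 6.21% (5.81 to 6.63%) of weak ones. Of the 174 nearest neighbours, 143 (82.2%) were weak, with a median score of 47.7, 26 were themselves among the regions, 2 were strong CEBPG-only peaks and 3 overlapped an ATF4 peak. In the whole list only 2982 of 25419 CEBPG peaks scored 100 or more, so most possible neighbours were weak as well. The centres were a median of 318 bp apart, less than the median width of the regions, and 121 of the neighbours lay within 400 bp. Whether such pairs are separate sites or parts of a split peak was not tested.

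Non-coding genes covered 216 regions (18.6%, 16.5 to 21.0%), against 14.1% of weak CEBPG-only peaks between genes and 6.80% of moderate CEBPG-only peaks inside genes. Between genes they also covered 40 of 211 strong CEBPG-only peaks (14.2 to 24.8%) and 38 of 242 CEBPG peaks with ATF4 (11.7 to 20.8%). Both of these intervals overlap that of the regions, so the share was not particular to them. How much of the space between genes lies in non-coding genes is not given here. Long non-coding RNA genes accounted for 199 of the regions, in 190 genes. Gm15270, 264 kb long, held 4 regions (101.33 to 403.13), and Gm12610 and Gm20125 held 3 each. After Gm15825, the highest score inside such a gene was 491.88, in Gm30799.

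ATF4 peaks were mostly distant. The nearest was a median of 306 kb from a region, and 41 regions (3.54%, 2.62 to 4.76%) had an ATF4 peak centred within 10 kb, against 2.79% (1.96 to 3.96%) of moderate CEBPG-only peaks inside genes and 2.71% (2.45 to 3.01%) of weak ones between genes. These intervals overlap. In 16 of the 41, the ATF4 peak lay on another CEBPG peak. The 5 closest were centred 295, 307, 341, 475 and 539 bp away, with ATF4 scores of 75.51, 62.03, 41.03, 42.57 and 40.97. The limit of the rule was 250 bp. The region 307 bp away, 11.4 kb from Tnfsf15, adjoined a CEBPG peak of score 166.67 that did overlap ATF4.

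At Fgf21 and Gars the region stood beside a site of both factors. The Fgf21 region (112.07, chromosome 7, 45615452 to 45615706) was 89 bp from the gene and 953 bp from an ATF4 peak of score 165.67, which overlapped a CEBPG peak of score 858.84. The Gars region (272.35, chromosome 6, 55037725 to 55038141) was 68 bp from the gene and 1009 bp from an ATF4 peak of score 51.78, on a CEBPG peak of 383.36. The region at Pycr1 (chromosome 11, 120643533 to 120644066) was 299 kb from the nearest ATF4 peak. A composite match at a start was thus found both with an ATF4 peak nearby and without.

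Genes near the regions were described with 9 gene lists (249 genes, all matched). A gene was counted when a region was centred within 50 kb of either of its ends. The region can lie nearer to another gene, as for Dbp (Fut2 at 4.51 kb), Csf1 (Ahcyl1 at 9.88 kb) and Col1a1 (Sgca at 2.75 kb). Over all 21887 protein-coding genes, 1263 (5.77%) were counted, and at 5 kb it was 242 (1.11%). Genes of a list differ from other genes in the space around them. The median length of sequence between genes in the window, 58.0 kb over all genes, is thus given for some lists.

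Cytokine, chemokine and other inflammatory genes had the highest share, 11 of 25 (44.0%, 26.7 to 62.9%), from 8 different regions, with 85.7 kb of space in their windows. The intervals of the gene lists count each gene as independent, which genes that share a region are not, so this interval is too narrow. Ptgs2 had its region at the promoter (359.99) and a second within 50 kb. The region nearest Il1a, 5.84 kb away (457.05), was also within 50 kb of Il1b, both encoding interleukin-1. Lif, a cytokine of the interleukin-6 family, had 2 regions, the higher of score 392.52 at 27.3 kb, and Csf1, the macrophage growth factor, had 2 with a highest score of 254.38. Chemokine genes were Ccl20 (248.11 at 16.9 kb), Cxcl5 (237.88 at 5.26 kb), Ccl2 and Ccl7 (the same region, 241.94) and Cxcl1 and Cxcl2 (the same region, 114.05, 3.57 kb from Cxcl2). At 5 kb, 2 of the 25 genes were counted.

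Extracellular matrix genes followed with 11 of 30 (36.7%, 21.9 to 54.5%) from 10 regions, and 76.7 kb of space. Scores were lower here, with a median of 148.05 for the highest region of each gene against 185.25 over all counted genes. Tnc, tenascin C, had a region of 322.59 at 29.7 kb, and Thbs2, thrombospondin 2, had 2, the higher of 260.43. The region 6.41 kb from Col3a1 (253.83) was also within 50 kb of Col5a2, both fibrillar collagen genes. Fn1 had a region 320 bp from the gene (156.49) and Fbn1, fibrillin 1, one at 6.25 kb (148.05). Col1a1, Col5a1, Col1a2, Lox and Mmp2 had regions from 25.9 to 48.3 kb away with scores from 107.94 to 135.29. Only Fn1 was counted at 5 kb.

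In the amino acid response list, 6 of 30 genes (20%, 9.51 to 37.3%) were counted, although all 30 had some CEBPG peak within 50 kb, as had 61.7% of all protein-coding genes and 93.3% of the extracellular matrix list. Those at their promoter were Pycr1, Gars and Fgf21. The rest had their region far from the listed gene: Ddit4, an inhibitor of mTORC1 (320.47 at 40.1 kb), Slc38a2, a neutral amino acid transporter (260.24 at 43.6 kb), and Asns, asparagine synthetase (157.50 at 44.8 kb). The region counted for Ddit4 was the one at the start of the non-coding gene Gm40673. Its nearest protein-coding gene was Dnajb12, at 10.3 kb. Mesenchymal transcription factor genes were also at 6 of 30, with regions close to Snai2 (327.10 at 1.90 kb), Osr1 (246.33 at 1.73 kb) and Klf4 (245.19 at 2.24 kb, 1 of 2), and with 3 regions within 50 kb of Zeb2 (highest score 141.40). bZIP genes were at 7 of 36 (19.4%, 9.75 to 35.0%), led by Dbp (382.07 at 34.2 kb) and Bach1 (211.93 at 34.1 kb). Atf6, the endoplasmic reticulum stress sensor, had a region 81 bp from the gene (149.58), and Atf3 and Batf3 shared one (119.17).

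The remaining lists were lower. Secreted growth factors and inhibitors were at 5 of 30 (16.7%, 7.34 to 33.6%), with Grem1, a BMP antagonist (416.10 at 6.58 kb), and Hgf, hepatocyte growth factor (256.43 at 6.56 kb), the closest. Adipocyte genes were at 4 of 25 (16.0%, 6.40 to 34.7%), including Plin2, a lipid droplet protein (447.21 at 16.6 kb), and Lep, leptin (338.21 at 14.4 kb). Neuronal genes, which fibroblasts are not known for, were at 3 of 20 (15%, 5.24 to 36.0%), with regions between 29.2 and 48.4 kb away and 0 within 20 kb. Their interval includes the 5.77% of all genes. Actin cytoskeleton and adhesion genes were at 1 of 25 (4.00%, 0.71 to 19.5%), Thy1, whose region (164.13 at 18.3 kb) lay 123 bp from Usp2.

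**Figure D5:**
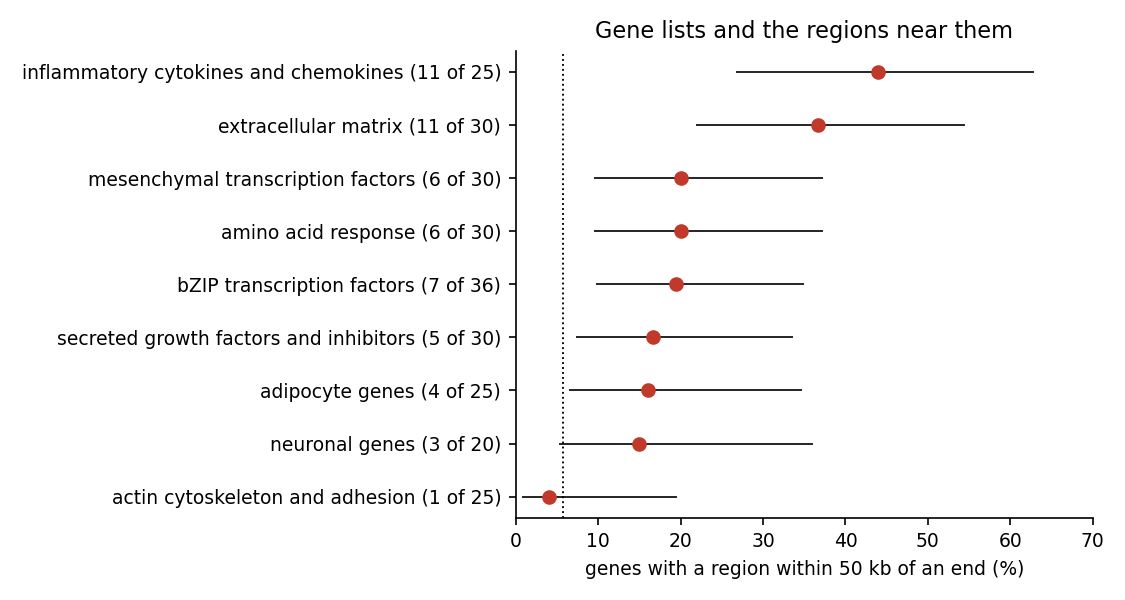
Share of the genes of each list (%, with 95% Wilson intervals) that had a region centred within 50 kb of an end, with the dotted line at the 5.77% of all protein-coding genes. Inflammatory and extracellular matrix genes stand highest at 44.0% and 36.7%, and actin cytoskeleton genes lie at 4.00%.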

How the data were processed

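The deposited files are peak lists, 1 per library, with each peak's position and a name that ends in its score. The authors' score has no stated unit. Per the submitters' processing notes, the tools were MACS 1.4.2, BWA, Trimmomatic and HOMER, on mm10, with settings and control library not given in the sources used here. Reads were 36 bases long. No counts were used, so depth is unknown. Positions are 1-based.

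Regions were chosen by score, ATF4 peaks and gene spans of the RefSeq table (GRCm38.p6, 21887 nuclear protein-coding genes), leaving out 2 mitochondrial CEBPG peaks. The regions and gene lists were chosen with earlier results of these data known, and the union of 3 motifs after seeing these values. Named regions were the 10 highest scores, the 8 farthest from genes, the 12 highest in promoter windows, the 5 nearest ATF4 and the densest 100 kb stretches, and up to 5 genes per list, with a few more for the 2 highest lists chosen after their values were seen, as were the printed windows. Motifs, 10 in all, were searched on both strands of RefSeq promoter windows, 1 window per peak. Overlapping windows on opposite strands were reverse complements in 1683 of 1683 pairs. Python 3.11.15, pandas 2.3.3, numpy 2.4.6 and scipy 1.17.1 were used, and the rule and motif search were tested on simulated data. Alternatives changed the score range, the ATF4 and gene conditions, the window, the motif spelling and the bases searched.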

Additional observations from a re-analysis of the deposited data

How the results depend on the processing

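Of 70 values recomputed under the alternatives, 59 stayed within 1.5 times the count or within the interval of the value, and 11 moved. With scores from 200 to under 500 there were 490 regions, a median distance of 30.4 kb and 584 genes within 50 kb. With no base of a peak allowed in a gene, 13.4% were within 5 kb of a gene end, and only 12 promoter windows were left for the motif share. Outside genes of any type the share in non-coding genes is 0.0 by construction. The share of promoter windows with the C/EBP motif was 22.0% (9 of 41) in the central 100 bases around the peak centre, against 36.6% of the same 41 in the whole window, and 11.4%, 63.6% and 6.82% with the motif spelled TTGCGCAA, TTNCNNAA and TTGCAA. Genes counted were 628 at 20 kb and 2125 at 100 kb. Removing the 250 bp condition could move nothing, since it left out 0 peaks beyond those that shared a base. Its values are thus among the 59 by construction. Widening the condition to 1000 bp moved no value past these limits. No paired analysis was possible because there was 1 library per antibody. The unknown depth limits every count of peaks, and motif shares rest on at most 44 windows.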

Other observations

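Some genes were the nearest protein-coding gene to several regions, a pattern chosen after the values were seen. The 1159 regions had 960 nearest genes, 822 of which were nearest to 1 region, and 5 were nearest to 5 or more. These were Cited2 with 9 regions (126 to 1170 kb away, highest score 380.17), Myc, the growth-promoting transcription factor gene, with 7 (1.70 to 668 kb, 396.20), Pappa, a protease acting on insulin-like growth factor binding proteins, with 6 (3.61 to 488 kb, 476.52), Slit2, an axon guidance ligand gene, with 6 (42.5 to 641 kb, 291.58), and Rbpj with 5. Gaps next to Cited2, Myc and Slit2 are long, 2952, 1786 and 2123 kb, so the count per gene also reflects the space beside it. In the 277 kb gap between Smim20 and Rbpj there were 18.0 regions per Mb, and in the 506 kb gap between Fn1 and Mreg 9.88, against 3.05 in the gap next to Cited2.

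Regions within 10 kb of a microRNA gene were also seen, and the examples were picked after the values were seen. The closest was 475 bp from Mir7666 (score 101.84), followed by one 1189 bp from Mir3970 (120.86). The share over all microRNA genes is not given here, so no excess of regions near them can be read from these examples. Mir34a, a microRNA gene induced by p53, had 2, centred 7799 and 8045 bp from it with scores of 302.12 and 337.52, both nearest to the protein-coding gene Gpr157. A region of score 179.67 lay 5979 bp from Mir196a-1, 86 bp from Hoxb9.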
